A study of Homo sapiens with 2 samples.

Results

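Intronic distal open regions are stretches of accessible chromatin that lie inside genes but away from promoters. They were taken from the ATAC-seq peak lists of 2 replicates of B2B cells. Overlapping peaks of both lists on chromosomes 1 to 22 and X were merged, and regions with a peak of each replicate were kept. The summit of the peak with the highest −log10 q stood for the region. A region counted as intronic where this summit lay more than 1 kb from the canonical TSS of every protein-coding gene, inside a protein-coding gene and outside the exons. Of 25326 regions shared by the replicates, 6418 met this rule, which is 25.3% (95% Wilson interval 24.8 to 25.9).

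B2B is the BEAS-2B line of human bronchial epithelial cells, immortalised but not cancerous, and both replicates were wild type and untreated. In ATAC-seq the Tn5 transposase inserts adapters where DNA is not packed into nucleosomes, so fragments pile up at open sites. All cells belong to 1 line and 1 condition, so no groups were compared, and the values below are shares, densities and levels with their errors. The labels do not say whether the replicates came from separate cultures.

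Introns are removed from the transcript, yet they make up most of the length of human genes and hold many enhancers, the elements through which transcription factors act on promoters at a distance. Enhancers in epithelial cells often carry sites for AP-1, a dimer of JUN and FOS proteins, and for TEAD factors, which bind DNA for the Hippo pathway coactivators YAP and TAZ. An open region inside a gene need not act on that gene. RNA levels and chromatin loops were not analysed here, so the genes below are hosts of open regions and not known targets.

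Reference sequences (hg38, plus strand) of 201 bases around the summit show regions with the commonest motifs. They were picked to show these motifs, and 3210 of the 6418 intronic regions hold neither AP-1 nor TEAD within 100 bp of the summit. The regions are the strongest ones in 6 of the genes with the most intronic regions, followed by 2 of the strongest of all. Capitals mark the AP-1 motif (TGACTCA or TGAGTCA), the TEAD motif (AGGAATG or TGGAATG, read CATTCCT or CATTCCA on the other strand) and the RUNX motif (TGTGGTT, read AACCACA on the other strand). Motif matches are letters in the sequence and not measured binding.
TENM2, chr5:167699537-167699737: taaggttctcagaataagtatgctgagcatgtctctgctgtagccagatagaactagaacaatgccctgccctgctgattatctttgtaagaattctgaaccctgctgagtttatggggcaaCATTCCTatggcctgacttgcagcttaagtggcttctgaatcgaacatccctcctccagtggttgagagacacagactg
IQCJ-SCHIP1, chr3:159458140-159458340: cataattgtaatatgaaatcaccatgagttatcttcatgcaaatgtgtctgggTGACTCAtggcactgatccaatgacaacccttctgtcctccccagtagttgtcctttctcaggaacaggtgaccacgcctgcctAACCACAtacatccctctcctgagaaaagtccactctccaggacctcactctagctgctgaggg
NAV2, chr11:20035780-20035980: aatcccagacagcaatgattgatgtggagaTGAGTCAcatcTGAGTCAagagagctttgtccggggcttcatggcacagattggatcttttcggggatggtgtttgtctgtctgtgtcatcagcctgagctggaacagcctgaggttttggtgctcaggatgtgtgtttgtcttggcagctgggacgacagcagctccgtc
PRKAG2, chr7:151727834-151728034: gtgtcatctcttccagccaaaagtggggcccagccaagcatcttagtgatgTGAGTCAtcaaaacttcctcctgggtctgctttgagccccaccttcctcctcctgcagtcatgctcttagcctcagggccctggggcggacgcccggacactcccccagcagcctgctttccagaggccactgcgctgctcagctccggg
ZMIZ1, chr10:79298859-79299059: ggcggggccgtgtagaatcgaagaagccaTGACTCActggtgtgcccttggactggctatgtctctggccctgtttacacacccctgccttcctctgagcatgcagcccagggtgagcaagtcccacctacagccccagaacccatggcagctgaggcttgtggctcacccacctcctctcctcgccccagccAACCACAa
SHB, chr9:38026012-38026212: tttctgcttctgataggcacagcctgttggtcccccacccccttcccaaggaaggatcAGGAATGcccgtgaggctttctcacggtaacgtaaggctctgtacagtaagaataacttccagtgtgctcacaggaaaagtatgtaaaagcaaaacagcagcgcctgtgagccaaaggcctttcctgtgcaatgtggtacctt
ARHGAP32, chr11:129143402-129143602: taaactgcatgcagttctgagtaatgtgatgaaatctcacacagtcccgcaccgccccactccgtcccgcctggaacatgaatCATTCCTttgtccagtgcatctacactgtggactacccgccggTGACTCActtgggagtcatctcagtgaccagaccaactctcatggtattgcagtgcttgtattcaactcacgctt
ASB5, chr4:176270771-176270971: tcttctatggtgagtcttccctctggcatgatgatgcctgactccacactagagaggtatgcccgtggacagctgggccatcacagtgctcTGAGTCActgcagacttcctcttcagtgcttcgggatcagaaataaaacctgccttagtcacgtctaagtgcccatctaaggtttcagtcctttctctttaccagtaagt

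The regions in IQCJ-SCHIP1 and ZMIZ1 hold an AP-1 and a RUNX motif each, the one in NAV2 holds 2 AP-1 motifs, and the one in ARHGAP32 holds an AP-1 and a TEAD motif. The regions in PRKAG2 and ASB5 hold an AP-1 motif alone, and those in TENM2 and SHB a TEAD motif alone.

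The lists hold 28685 peaks of replicate 1 and 36109 of replicate 2 on the chromosomes used. The number of fragments over a summit was solved from the deposited fold enrichment and p-value, and came out for 99.7% and 99.8% of the peaks. No summit had fewer than 16 fragments in replicate 1 or 13 in replicate 2, so introns without a peak may hold open sites too weak to be called. The peaks formed 10738 intronic regions in all. Of these, 59.8% (58.8 to 60.7) had a peak of each replicate, 676 had a peak of replicate 1 alone and 3644 of replicate 2 alone. Promoter regions were shared more often, in 77.9% of 13220, and intergenic ones in 63.2% of 12014. Intergenic here means outside protein-coding genes and their promoters, so genes of long non-coding RNA (lncRNA) and their starts are included.

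The intronic regions were weaker and narrower than open promoters and close to intergenic regions in both respects. Their median fold enrichment, which divides the fragments over the summit by the background that MACS2 set for it, after adding 1 to each, was 5.89 in replicate 1 and 7.48 in replicate 2 (6.68 ± 1.12, SD, n = 2). Promoter regions had medians of 7.45 and 8.92, intergenic regions 6.06 and 7.70, and exonic regions 6.06 and 7.25. In each replicate the promoters thus lay above the intronic regions, while the gap between the replicates was as large as the gap between these classes. The median intronic summit had 34 fragments in either replicate. The median peak was 251 bp wide in replicate 1 and 303 bp in replicate 2, against 437 and 515 bp at promoters.

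**Figure D1:**
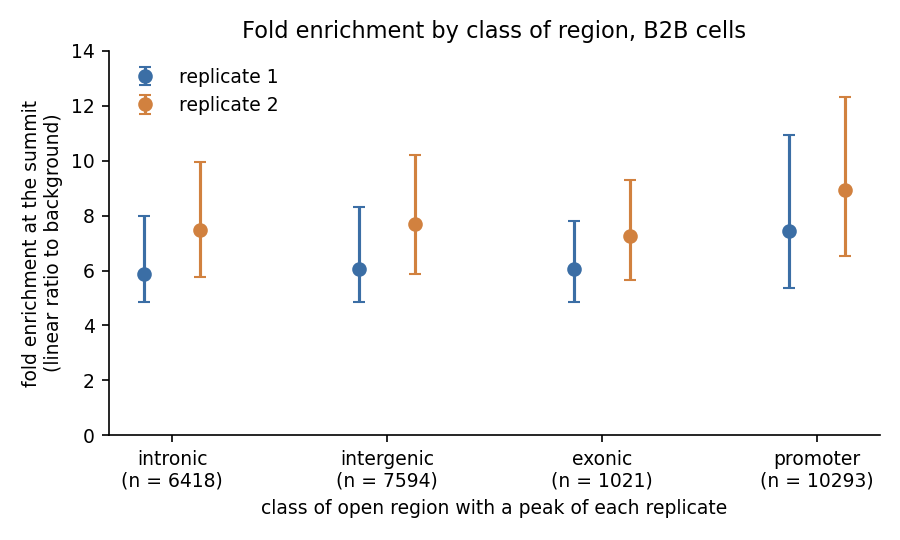
Median fold enrichment at the summit (linear ratio, vertical axis) of intronic, intergenic, exonic and promoter regions in replicate 1 and replicate 2, with bars from the 25th to the 75th percentile over regions. The intronic medians of 5.89 and 7.48 lie below the promoter medians of 7.45 and 8.92 and close to the intergenic medians of 6.06 and 7.70.

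The base composition also set intronic regions apart from promoters. The window of 201 bases around the summit had a median GC content of 50.7% and 3 CpG dinucleotides, against 69.2% and 20 at promoters. The fold enrichment of the intronic regions correlated between the replicates with a Spearman correlation of 0.725 across regions, which share a genome and are not independent replicates (0.864 for promoters). The summits of the replicates lay 31 bp apart at the median. A few regions stood far above the rest. Of the 18 with a mean fold enrichment above 30, 17 matched mitochondrial DNA, whose reads can also map to such nuclear copies, and 38 of the 6418 did so in all. These 38 were left out when the strongest regions were ranked.

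The AP-1 motif was the most frequent of the 18 motifs searched, which differ in length and ambiguity, so their shares are not directly comparable. Within 100 bp of the summit it was found in 2230 of the 6418 regions, or 34.7% (33.6 to 35.9). In flanking windows of equal size, centred 1000 bp upstream and downstream of each summit, it was found in 3.55% (3.25 to 3.89), so the share at summits was 9.78 times that of the flanks. Over all shared regions the share was 20.5%. Intergenic regions had 32.1%, exonic regions 23% and promoters 2.81%. The share of intronic regions exceeded that of intergenic ones by 2.64 percentage points (95% Newcombe interval 1.07 to 4.21). The intergenic class includes lncRNA genes and their starts, and the part of these in the gap was not tested. All such intervals cover counting error only, and neighbouring regions are not independent.

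Motifs of other enhancer-binding families were frequent as well. The TEAD motif was found in 21.9% of intronic regions (20.9 to 22.9) and in 7.63% of the flanks. The RUNX motif, bound by RUNX1 to RUNX3, was found in 8.57% against 3.38%. The NFI core (TTGGCA), a part of the site of the NFI family, was found in 16.7% against 10.4%, and the E-box CAGCTG in 17.5% against 9.65%. In promoters the TEAD motif was found in 2.89%, and the RUNX motif in 1.48%, so both were rarer there than in the intronic regions.

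Motifs typical of promoters were less frequent in intronic regions than in promoters. The SP/KLF motif (GGGCGGG) was found in 10.4% of intronic regions and in 50.7% of promoters, a difference of -40.4 points (-41.6 to -39.1). The ETS motif (CCGGAAGT) was found in 0.514% against 6.38%, and the NRF1 motif (GCATGCGC) in 0.545% against 4.01%. In the flanks of the intronic regions SP/KLF was found in 2.99% (2.71 to 3.30), below its share at intronic summits. ETS was found there in 0.117% (0.0708 to 0.193), also below its share at summits. For NRF1 the flanks had 0.343%, and its intervals at summits and in flanks overlapped. The flanks had a median GC content of 45.3%, against 50.7% at intronic summits. The part of base composition in the differences between summits and flanks was not tested. CTCF, the insulator protein that marks loop boundaries, had its motif in 1.5% of intronic regions (1.23 to 1.82) and in 2.90% of intergenic ones, a difference of -1.40 points (-1.88 to -0.919). The flanks of the intronic regions held the CTCF motif in 0.101%, from only 13 windows. Its share at summits was 14.8 times that of the flanks, a higher ratio than the 9.78 of AP-1. For FOX (TGTTTAC), the share at summits was 3.55% (3.13 to 4.03) and that in the flanks 2.84%, and for the GATA factors (AGATAAG) the shares were 2.35% (2.01 to 2.75) and 2.60%. The remaining motifs were rare at summits. The E-box CACGTG was found in 3.74%, the CArG box in 1.12%, OCT (ATGCAAAT) in 0.935%, CRE (TGACGTCA) in 0.654% and C/EBP (TTGCGCAA) in 0.0779%. In the flanks their shares were 2.52%, 1.03%, 1.16%, 0.148% and 0.0701%, in the same order.

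The YY1 motif and an E-box went the other way. YY1 (AAGATGG) was found in 2.21% of summit windows (1.88 to 2.60) and in 4.23% of the flanks (3.90 to 4.59). The E-box CAGGTG, the site of the repressors ZEB and SNAI, was found in 7.21% of summit windows (6.61 to 7.87) and in 18.8% of the flanks. Summits of promoter, exonic and intergenic regions held it in 9.39%, 11.3% and 7.82%. One longer word of repetitive DNA that contains this E-box made up 5.77% of its matches in the flanks and 0.398% of those at summits. Only this exact word was counted, and the part of repeats in the difference was not tested.

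**Figure D2:**
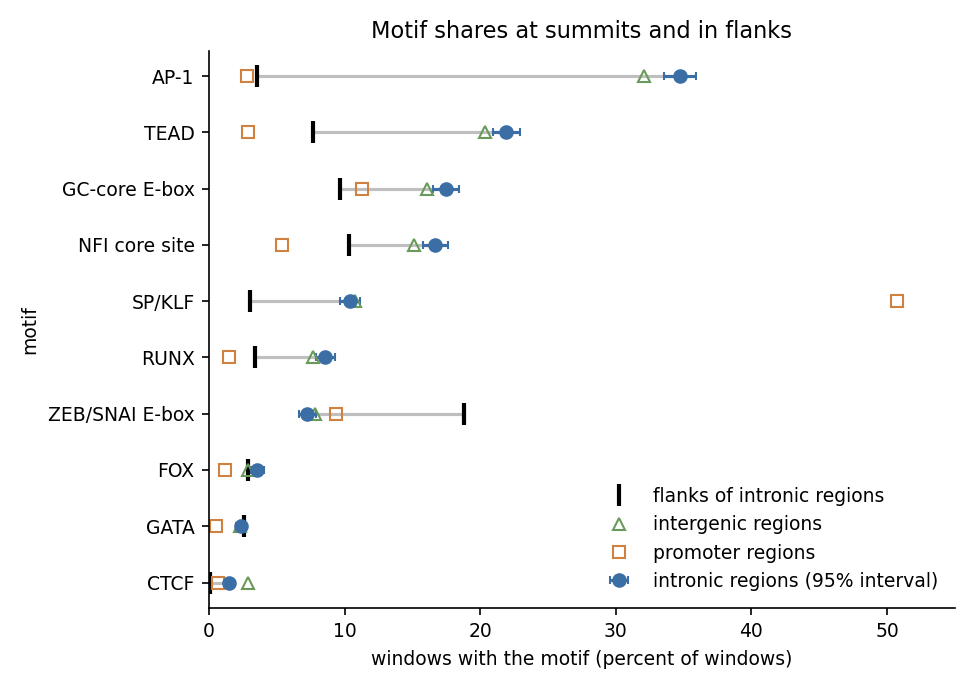
Share of windows of 201 bases with each of 10 motifs (percent, horizontal axis) at the summits of intronic, intergenic and promoter regions and in the flanks of the intronic regions, with 95% Wilson intervals for the intronic summits; the GC-core E-box is CAGCTG and the ZEB/SNAI E-box CAGGTG. AP-1 rises from 3.55% in the flanks to 34.7% at intronic summits, whereas the ZEB/SNAI E-box falls from 18.8% to 7.21%, and SP/KLF stands at 50.7% in promoters.

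AP-1 motifs lay close to the point of highest accessibility. In regions with the motif, the nearest match was 33 bp from the summit at the median, and within 50 bp in 71.5%. Within 25 bp of the summit the density was 2.74 AP-1 matches per kb, and between 300 and 500 bp away it was 0.197 per kb, a ratio of 13.9. The same ratio was 3.53 for TEAD, 2.50 for RUNX and 1.53 for the NFI core. For CTCF it was 11.9, from only 16 matches near the summit and 11 far from it.

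**Figure D3:**
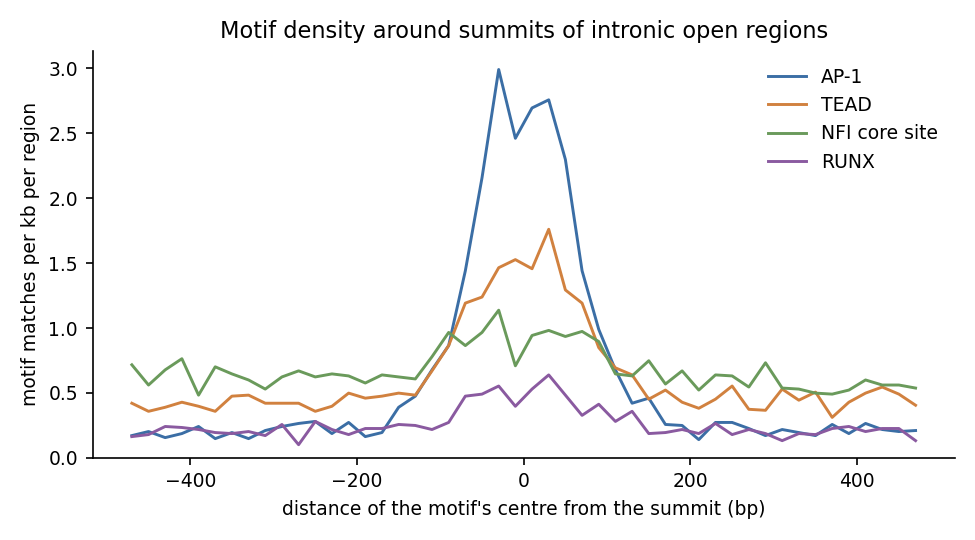
Motif matches per kb per region (vertical axis) against the distance of the motif from the summit in bp (horizontal axis, bins of 20 bp) over the 6418 intronic regions, for AP-1, TEAD, the NFI core site and RUNX. AP-1 is concentrated within about 100 bp of the summit, with 2.74 matches per kb within 25 bp and 0.197 per kb between 300 and 500 bp.

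The bases next to the AP-1 motif differed between summits and flanks. The commonest 9-base forms at summits were CTGAGTCAC with 11.1% of the 2550 matches, GTGACTCAC with 10.7% and ATGAGTCAC with 10.6%. Forms with a T before the motif or an A after it, on either strand, made up 306 of the 2550 matches at summits and 144 of the 460 in the flanks, a difference of -19.3 points (-23.8 to -15.0). The fully T- and A-flanked form TTGACTCAA was found 8 times at summits, or 0.314% of the matches, and 14 times in the flanks, or 3.04%.

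Regions with AP-1 motifs were somewhat more accessible. The 4188 regions without a match had median fold enrichments of 5.72 in replicate 1 and 7.25 in replicate 2. The 1920 with 1 match had 6.06 and 7.70, and the 310 with 2 or more had 6.65 and 8.84. The order was the same in both replicates, and the steps were smaller than the gap between the replicates. When the regions were sorted by fold enrichment into 5 groups of equal size, the share with the motif went from 28.1% in the weakest group to 38.9% in the strongest in replicate 1, and from 28.5% to 40.2% in replicate 2.

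Some motifs were less frequent beside AP-1. TEAD motifs were present in 19.2% of regions with AP-1 and in 23.4% of those without, a difference of -4.16 points (-6.21 to -2.06). For SP/KLF the shares were 4.62% and 13.4%. CTCF motifs were found in 4 of the 2230 regions with AP-1 and in 92 of the 4188 without. For RUNX the difference was -1.18 points (-2.55 to 0.272) and for the NFI core -0.604 points (-2.48 to 1.33), and both intervals include 0. The E-box CAGCTG was more frequent with AP-1, in 18.9% against 16.7% (difference 2.26 points, 0.304 to 4.26). The 428 regions with both AP-1 and TEAD had median fold enrichments of 6.41 and 8.16, against 6.06 and 7.70 for the 1802 with AP-1 without TEAD. Neither motif was found in 3210 regions, with medians of 5.72 and 7.25.

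The regions were spread over 1177.62 Mb of available intron, which is the protein-coding intron sequence more than 1 kb from a canonical TSS, at 5.45 regions per Mb (exact 95% Poisson interval 5.32 to 5.58). First introns of the canonical transcript held 1740 of them at 7.1 per Mb (6.77 to 7.44), and later introns 3642 at 4.69 per Mb (4.54 to 4.84). The density fell along the gene, with 5.76 per Mb in intron 2, 5.02 in intron 3 and 4.28 in the later ones. The ratio of the first to all later introns was 1.52. A further 1036 regions lay inside a gene but outside its canonical transcript, at 6.66 per Mb.

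First introns lie next to the promoter, where the density was highest. It was 19.6 per Mb at 1 to 2 kb from the TSS of the host gene, 7.12 at 2 to 5 kb, 5.93 at 25 to 50 kb and 3.63 beyond 200 kb. At equal distances first introns had the higher density in each range below 100 kb, with intervals apart between 10 and 50 kb. At 10 to 25 kb they had 6.88 per Mb (6.21 to 7.61) against 4.73 in later introns (4.28 to 5.21). At 25 to 50 kb the values were 7.65 (6.87 to 8.50) and 4.85 (4.46 to 5.28). Below 10 kb and from 50 to 200 kb the intervals overlapped. From 100 to 200 kb first introns were slightly lower, at 4.76 against 5.08 per Mb. Beyond 200 kb they had 2.23 per Mb (1.55 to 3.12) and later introns 3.78 (3.53 to 4.04), with intervals apart. Restricted to more than 5 kb from the TSS, the ratio was 1.37.

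**Figure D4:**
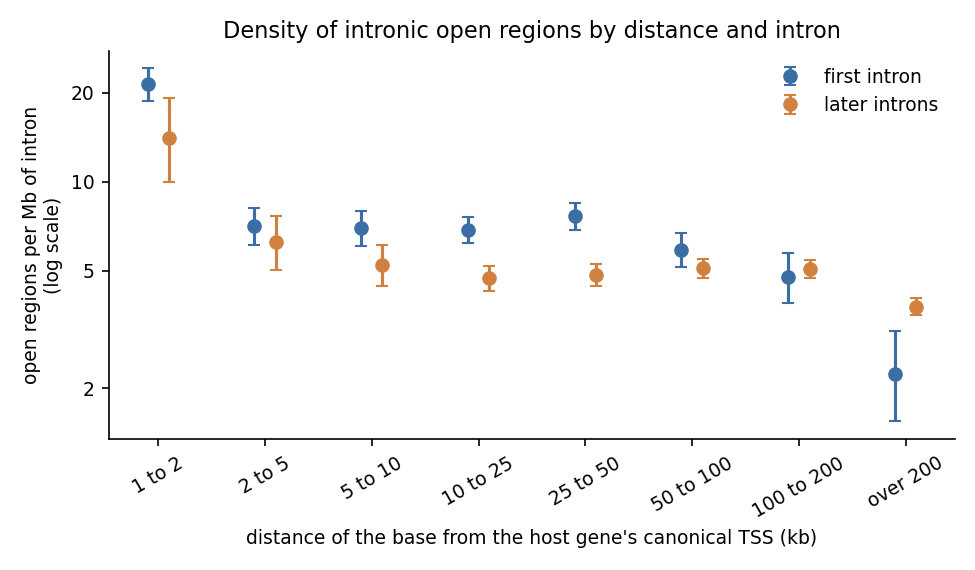
Intronic open regions per Mb of intron (log scale) against the distance from the canonical TSS of the host gene in kb, for first introns and for later introns, with exact 95% Poisson intervals. First introns lie above later introns in each range below 100 kb. The intervals are apart from 10 to 50 kb, for example 7.65 against 4.85 per Mb at 25 to 50 kb. Beyond 200 kb first introns lie below, with intervals apart, at 2.23 against 3.78 per Mb.

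The median region lay 49.7 kb from the TSS of its host gene, with the middle of the distribution from 16.3 to 127.7 kb, and 1998 regions (31.1%) lay more than 100 kb away. The share with an AP-1 motif was 34.0% (31.8 to 36.3) in first introns and 36.2% (34.6 to 37.7) in later ones. It changed with distance near the TSS, from 14.6% at 1 to 2 kb and 27.0% at 2 to 5 kb to 37.6% at 5 to 10 kb, and stayed between 35.6% and 37.6% beyond 5 kb. CpG counts went the other way, from a median of 11 at 1 to 2 kb to 3 from 5 to 200 kb.

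The limit of 1 kb did not separate promoter-like from distal sequence sharply. The 132 intronic regions at 1000 to 1250 bp from the nearest canonical TSS had a median of 12 CpG and an AP-1 share of 10.6%. The 213 regions just inside the promoter side, at 750 to 1000 bp, had 12 CpG and 12.2%. Beyond 2 kb the AP-1 share was 36.0%. Other annotated starts were also near: 985 intronic regions (15.3%) lay within 1 kb of the start of a non-canonical transcript of a protein-coding gene, with an AP-1 share of 21.3% (18.9 to 24.0) and a median of 8 CpG. A start of another gene type, mostly lncRNA genes, lay within 1 kb of a further 260. The remaining 5173 regions (80.6%) were near neither, and 37.7% of them (36.4 to 39.0) held the AP-1 motif.

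The intronic regions lay in 3598 genes when a summit inside several overlapping genes counted for each. With each region given to 1 gene, the hosts numbered 3401 of the 17560 genes with available intron, which is 19.4% (18.79 to 19.96), and this assignment is used from here on. Among the hosts, 2001 held 1 region, 209 held 5 or more, and 15 held 10 or more. In the same gene, 32.2% of the regions had another within 12.5 kb. Genes with an open promoter were hosts in 22.7% of cases, at 6.22 regions per Mb (6.04 to 6.41), and genes without one in 15.4%, at 4.38 per Mb (4.19 to 4.56).

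TENM2, which encodes a teneurin, a transmembrane adhesion protein, held the most, with 18 regions (chr5:166979029-168264157, ENSG00000145934.17). They lay 169.0 to 1135.6 kb from its TSS, in introns 2 to 11, with 8 of them in intron 4, and the promoter itself was not open in both replicates. The strongest, in intron 4, had a fold enrichment of 26.2 in replicate 1 and 27.4 in replicate 2. A second one in the same intron had 23.3 and 21.6, and no other region of the gene passed 20. The TEAD motif was found in 8 of the 18 and the AP-1 motif in 5.

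IQCJ-SCHIP1 and NAV2 held 15 regions each. In IQCJ-SCHIP1, whose transcript joins IQCJ to SCHIP1, the gene of a protein that binds the tumour suppressor merlin, 9 lay in the first intron and 6 in intron 2. Of these, 5 lay within 1 kb of the start of another transcript of a protein-coding gene. The fold enrichment ran from 2.74 to 16.8 in replicate 1 and from 3.66 to 15.6 in replicate 2. In NAV2, a cytoskeleton-associated navigator protein, 8 of 15 held the AP-1 motif. Its fold enrichments ran from 3.98 to 11.3 and from 3.82 to 12.7, and 7 of its regions lay upstream of the canonical TSS, inside longer transcripts.

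SPOCK1, a secreted proteoglycan, held 14 regions and PRKAG2, a regulatory subunit of the energy-sensing kinase AMPK, held 13. They differed in motifs. In PRKAG2 7 of 13 had AP-1, and 7 lay in intron 3, where the strongest reached 14.03 in replicate 1 and 17.8 in replicate 2 at separate sites. In SPOCK1 2 of 14 had AP-1 and 1 had TEAD, and the strongest, in intron 2, had 12.6 and 17.7. ZMIZ1, a transcriptional coregulator, held 12 regions, of which 6 had AP-1.

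SHB, an adaptor of tyrosine kinase receptors, SEPTIN9, a GTPase of the cytoskeleton, and GALNT10, which starts O-linked glycan chains, held 11 regions each. AP-1 motifs were found in 1 region of SHB, 5 of SEPTIN9 and 3 of GALNT10, and TEAD motifs in 4, 0 and 5. The regions of SEPTIN9 reached no more than 7.86 in replicate 1 and 11.6 in replicate 2, and 6 of them lay within 1 kb of a non-canonical start. Of 5 genes with 10 regions, the 2 densest, CUEDC1 and IGF1R, completed the 12. In IGF1R, the receptor of insulin-like growth factors, 8 of 10 lay in intron 2 and 1 had AP-1. Its strongest region had 17.3 and 15.9.

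**Figure D5:**
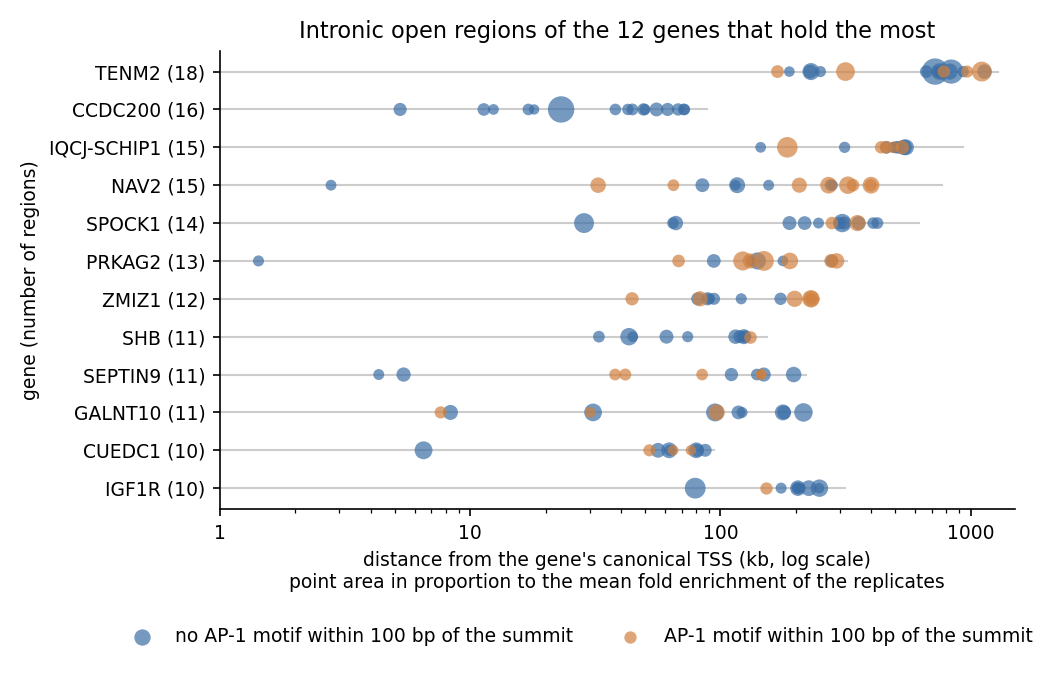
Distance from the canonical TSS (kb, log scale) of each intronic open region in the 12 genes with the most, with the point area in proportion to the mean fold enrichment of the replicates, the colour for the AP-1 motif and a grey line for the length of the gene. TENM2 has its 18 regions between 169.0 and 1135.6 kb, and CCDC200 has 16 regions within 71.9 kb and none with AP-1.

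CCDC200 stood apart. All 16 of its regions (chr17:43216941-43305397, ENSG00000236383.9) lay within 1 kb of a copy of the U2 gene, which makes the U2 small nuclear RNA of the spliceosome and is repeated in tandem inside the CCDC200 locus. The annotation has 13 copies there, and the summits lay 254.5 bp from the nearest at the median and at most 766 bp. None had an AP-1 motif. For 15 of the 16, the sequence resembled another intronic region at 90% identity or more, so reads cannot be assigned between the copies with certainty, and the count of 16 is uncertain. The strongest had 26.3 in replicate 1 and 27.2 in replicate 2, and the next 6.76 and 8.02. In all, 83 intronic regions (1.29%) resembled another one to this extent.

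TENM2, SPOCK1 and GALNT10 lie on chromosome 5 beyond 80 Mb, where the summits had more fragments. The 457 intronic regions there had a median of 40 fragments in each replicate, against 33 for the other 5961. Chromosome 5 also had the highest density, 9.03 regions per Mb, and the lowest was 1.66 on X. DNA copy number was not measured here, and the part of the fragment level in the counts of these genes was not tested.

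Genes were also ranked by regions per 100 kb of intron, which by its construction favours genes with short introns. Among genes with at least 4 regions, a read-through gene without a symbol (ENSG00000273259) had 22.8 regions per 100 kb and CCDC200 19.7. LOXL1, which crosslinks elastin, followed with 17.8, CDC42EP4, an effector of the GTPase CDC42, with 17.3 and CXXC5, a zinc finger protein of Wnt signalling, with 15.8. All 4 regions of CDC42EP4 and all 5 of CXXC5 lay in the first intron. In CXXC5, which is on chromosome 5 beyond 80 Mb, the fold enrichments were low, at 3.64 to 6.22 in replicate 1 and 3.02 to 8.12 in replicate 2. PPP2R1B, PLEC, TEX35, CCN4 and CUEDC1 had between 14.1 and 11.4 per 100 kb. All 16 regions of CCDC200, all 4 of TEX35, 4 of 6 in PLEC and 3 of 4 in PPP2R1B lay outside the canonical transcript.

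The strongest region outside mitochondrial copies lay in intron 5 of ZP3, a gene of the egg coat, with a fold enrichment of 49.9 and 44.8. It was 147 and 150 bp wide and held none of the AP-1, TEAD and RUNX motifs. Its summit window holds a long unbroken run of T, and the fragment number could not be solved in either replicate. How reads map to this sequence was not tested, so its level is uncertain. The next were in ARHGAP32, a GTPase-activating protein, with 24.6 and 32.9, in ASB5, which encodes an adaptor of ubiquitin ligases, 1.65 kb from its TSS, with 29.95 and 24.3, and the TENM2 and CCDC200 regions described above. GRIA1, a glutamate receptor subunit on chromosome 5 beyond 80 Mb, had 27.7 and 25.5. TLK1, EFCAB2, DYNC1I1 and MYOM2 completed the 10, with means from 25.4 to 23.8. That in TLK1 was 145 and 148 bp wide and held none of the AP-1, TEAD and RUNX motifs. The AP-1 motif was found in 4 of the 10, those in ARHGAP32, ASB5, GRIA1 and EFCAB2.

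Next, 10 lists of genes were set beside the share of 19.4% of all genes that were hosts and the density of 5.45 per Mb over all introns. Genes of the actin cytoskeleton and of focal adhesions, through which cells grip the matrix, were hosts in 20 of 36 cases, with 11.9 regions per Mb (9.26 to 15.1). PALLD, an actin-bundling protein, held 9, LPP 8 and TNS3 6. Of the integrins and matrix genes 21 of 36 were hosts, at 16.8 per Mb (12.5 to 22.0). COL4A2, a basement membrane collagen, held 8, all without AP-1, LOXL2 5 and LAMB1 4. In these lists AP-1 was found in 30.9% of 68 and 33.3% of 51 regions. The listed genes were chosen for their function and not matched in length or expression to other genes, so nothing particular to a list is read from these counts.

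Of the genes of the Hippo pathway 14 of 24 were hosts, at 14 per Mb (9.92 to 19.2). WWC1, the upstream Hippo protein KIBRA, held 9 regions, of which 7 had the TEAD motif and 0 AP-1. It lies on chromosome 5 beyond 80 Mb. Of its 9 regions 8 lay in the first intron, and the fold enrichment ran from 4.85 to 18.5 in replicate 1 and from 4.30 to 20.2 in replicate 2. AMOTL1, which binds YAP, held 5 regions, and TEAD1 itself and the kinase STK3 were among 4 genes with 3.

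In the TGF-beta and SMAD pathway 14 of 28 genes were hosts, at 14.5 per Mb (10.1 to 20.2). SMAD3, which carries the signal to the nucleus, and the coreceptor TGFBR3 held 6 regions each. In SMAD3 5 of 6 lay in the first intron, with fold enrichments of 4.33 to 8.38 and 4.76 to 9.29. ACVR1 and LTBP1 held 4 each. The AP-1 subunits and their kinases were hosts in 9 of 30 cases, with 11 regions in all at 6.26 per Mb (3.12 to 11.2), close to that of all introns. ATF3 and the stress kinase MAP3K5 held 2 regions each and FOSL2 1, with 9.70 and 11.2. The stronger one in MAP3K5 had 16.3 in replicate 1 and 20.8 in replicate 2 and carried an AP-1 motif.

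Of the receptor tyrosine kinases 23 of 32 were hosts, at 10.2 per Mb (7.75 to 13.1), led by IGF1R with 10. EGFR, the receptor of epidermal growth factor, and ROR1 held 5 each. In EGFR 4 of 5 lay in the first intron and 4 had AP-1, and the strongest, in intron 20, had 11.1 and 14.7. Of a list of transcription factors, with the NFI, RUNX, KLF and ETS families and others such as TCF, PBX and BACH, 23 of 30 were hosts, at 9.61 per Mb (7.49 to 12.1), with an AP-1 motif in 30 of their 70 regions. NFIB held 8, and NFIA, ETS1 and BACH2 6 each. In ETS1 none of the 6 had AP-1.

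The epithelial junction and keratin genes were hosts in 17 of 36 cases, at 13 per Mb (8.90 to 18.4). TP63, the factor of basal epithelial cells, held 4 regions and TJP1, a tight junction scaffold, 3. Genes of airway secretory and ciliated cells were hosts in 3 of 30 cases, at 2.34 per Mb (0.858 to 5.09). These were DNAH11 with 3, CFTR with 2 and DNAH5 with 1. The region in intron 11 of CFTR, the chloride channel of airway epithelium, was strong, with 20.3 in replicate 1 and 22.9 in replicate 2, and carried AP-1 and TEAD motifs. Neuronal adhesion and synapse genes, which are very long, were hosts in 18 of 30 cases but at only 1.28 per Mb (0.955 to 1.68). GPC6 and NRXN3 held 9 each.

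The oncogene table used here held 618 symbols, of which 605 matched a gene. These were hosts in 179 cases, or 29.6% (26.1 to 33.3), against 19.4% of all genes. They held 384 regions at 6.0 per Mb (5.41 to 6.63), an interval that includes the 5.45 per Mb of all introns. The table was not matched in gene length to other genes, so nothing particular to oncogenes is read from the share of hosts. ARID1B and MSI2 held 9 each. The AP-1 motif was present in 33.3% of these regions, near the 34.7% of all intronic regions, and their median fold enrichments of 5.72 and 7.48 were near those of all.

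The label of the cells was set against intronic regions in marker genes. Of 14 airway epithelial markers 4 were hosts (TP63 with 4 regions, KRT8 with 3, GRHL2 and CLDN4 with 1). CDH1, EPCAM, KRT5, KRT14, KRT18, KRT19, ESRP1, ELF3, NKX2-1 and FOXA1 had none. Of 12 mesenchymal markers 5 were hosts (COL5A1 with 3, CDH2, COL1A1, ZEB2 and LOX with 1). VIM, FN1, COL1A2, SPARC, FAP, TWIST1 and ZEB1 had none. The airway markers had 12.8 regions per Mb (5.86 to 24.3) and the mesenchymal ones 6.77 (2.72 to 13.95), against 5.45 over all introns. Among the endothelial markers CDH5 and TEK held 2 and VWF 1, and PECAM1 and KDR none. Among the blood markers PTPRC, whose promoter was not open in both replicates, held 4, all in intron 2, and CD3E, CD14 and SPI1 none. Of all genes 19.4% were hosts. The share was 28.6% (11.7 to 54.6) for the airway markers and 41.7% (19.33 to 68.05) for the mesenchymal ones, and both intervals include 19.4%. The blood interval (3.62 to 62.4) included it too, and the endothelial one (23.1 to 88.2) lay above it, from 5 genes each. With so few genes, nothing particular to a cell type is read from these counts. Intronic regions were thus found in genes of several cell types and do not by themselves identify the cell.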

How the data were processed

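Reads of 2 B2B replicates were mapped by the authors to hg38 with Bowtie2 2.4.4. Duplicates were dropped by the authors' own code, after which MACS2 2.2.7.1 called the peaks of each replicate with all remaining reads kept. Cut-site shift, mitochondrial filter and q limit are not given in the sources used here. The deposited lists give, per peak, a fold enrichment (linear ratio), a −log10 p, a −log10 q, a score that was not used, and the summit offset.

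The members and gene lists were chosen with earlier results of these data known. Peaks were merged at an overlap of 1 bp. Genes came from GENCODE 44. A summit in an exon of any protein-coding gene was not intronic, and a region in several genes was given to the longest gene that is not a read-through. Fragments at summits were solved from fold enrichment and −log10 p within 0.01. Motifs were searched on both strands within 100 bp of the summit. CTCF and the CArG box were searched as ambiguous cores, and their shares are among those reported. To mark mitochondrial matches, the whole merged intronic regions were aligned to the mitochondrial genome by blastn (BLAST 2.17.0, E-value limit 1e-10).

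The genes named were the 12 hosts with the most regions (ties by density), the 10 densest with at least 4 regions, the genes of the 10 strongest regions outside mitochondrial matches and the 3 leading genes of each list, and the genes of lists under 10. Among ties in a list (TEAD1, STK3, FOSL2, ETS1, BACH2, ROR1), genes were chosen after their values were seen. All airway and mesenchymal markers are named. The sequences printed, 6 of the leading hosts and 2 of the strongest, were picked from 16 for their motifs. A few genes and sequences that the rule names are not reported here. Overlap, placement, motif search and fragment solving were tested on simulated data, with 1500 of 1500 shared regions, 5000 of 5000 points, 400 of 400 motifs and 1886 of 1886 fragment counts recovered. Scripts ran in Python 3.11.15 (matplotlib 3.10.9, scipy 1.17.1, pandas 2.3.3, numpy 2.4.6) with samtools 1.23.1. Intervals are at 95% and cover counting error only.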

Additional observations from a re-analysis of the deposited data

How the results depend on the processing

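The 7 main results were recomputed under 73 alternatives, and 43 of them stayed within 1.5 times the main count or, for other values, within the SD of the replicates taken alone. Only the ratio of first to later introns could reverse a direction, and it did not. With each replicate taken alone, there were 7245 to 10128 intronic regions, 25.3% to 28.0% of all regions, in 3819 to 4743 genes, with 27.4% to 27.7% in first introns, a density ratio of 1.56 to 1.56, AP-1 in 32.7% to 33.5% and a median fold enrichment of 5.55 to 6.12; the higher count was that of replicate 2. The AP-1 share was 23.8% within 50 bp of the summit and 40.9% over the merged region. It was 35.4% when the peaks had to overlap each other by 50%, 36.2% beyond 3 kb from a canonical TSS, 37.2% beyond 1 kb from the TSS of every transcript and 33.7% with exons of the canonical transcript alone. Under the same 4 settings the share in first introns was 26.9%, 24.1%, 26.2% and 26.8%, and the ratio of first to later introns 1.49, 1.38, 1.41 and 1.54. With summits in the exon of one gene and the intron of another kept, the share was 26.9% and the ratio 1.51. The share of regions that are intronic was 21.5% with the TSS of every transcript and 27.6% with canonical exons. Chosen after seeing the data, leaving out the matches to mitochondrial DNA gave a ratio of 1.52 and keeping to more than 5 kb from the TSS 1.37. The SD of the replicates taken alone was 0.00562 for the ratio and 0.180 points for the first-intron share, so small moves pass it. No paired analysis was possible because both replicates form a single group. The weakest called summits had 16 fragments in replicate 1 and 13 in replicate 2; the effect of depth on the count was not tested.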
